A study of Mus musculus with 96 samples.

Results

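A set of 10 genes of dopamine neurons was followed across the hippocampus, thalamus and hypothalamus of mice after controlled cortical impact. They were Th, Slc6a3, Slc18a2, Ddc, En1, Chrna6, Aldh1a1, Pitx3, Drd1 and Drd2. They were picked by symbol, because Slc6a3 and En1 were known to lead the variation among thalamic libraries. All 10 were found in both count tables, which hold 32594 rows each. Since the values of Slc6a3 and En1 in the thalamus chose the set, every comparison of these genes that includes the thalamus is given as a description, with no test.

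Dopamine is made from tyrosine, which tyrosine hydroxylase converts to L-DOPA and aromatic L-amino acid decarboxylase then converts to dopamine. The vesicular monoamine transporter loads it into vesicles, and the dopamine transporter at the cell surface takes it back up after release. Most dopamine neurons of the brain lie in the ventral midbrain, next to the thalamus and hypothalamus, and smaller groups lie in the hypothalamus and zona incerta. Tyrosine hydroxylase is shared with noradrenaline neurons, the decarboxylase and the vesicular transporter with serotonin neurons too, whereas the dopamine transporter is largely particular to dopamine neurons.

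RNA was sequenced from the ipsilateral hippocampus, thalamus and hypothalamus of male C57BL/6 mice, 3 or 29 days after the injury (dpi, days post injury). The mice were 8 to 10 weeks old when obtained and were acclimatised before use, so the time points also differ in age at sampling. Each region and time point held 4 groups of 4 libraries, 96 in all: sham injury with vehicle (Sham + VH), impact with vehicle (TBI + VH), sham with candesartan (Sham + CD) and impact with candesartan (TBI + CD). Candesartan, a blocker of the angiotensin II type 1 receptor, was given at 0.1 mg/kg from 6 h after injury. Mice of the 3 dpi cohort had further injections at 24 and 48 h, and mice of the 29 dpi cohort carried an osmotic pump from 24 h. Vehicle was saline with sodium carbonate. Sham mice had anaesthesia and a scalp incision without craniectomy, so impact and craniectomy cannot be told apart. The 4 RNA samples of highest quality in each group were sequenced. Whether libraries with the same number came from the same mouse is not stated, nor is it said that the 4 of a group came from separate mice, so p-values measure the spread between these samples.

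Library totals ranged from 6663629 to 38589791 counts, and 7 libraries, all at 29 dpi, held under 15000000. The tissue labels were checked on marker lists in Sham + VH libraries. Of the markers that passed the filter in hippocampus alone, all 6 of thalamus were called higher in thalamus than in hippocampus at 3 dpi, all 5 of hypothalamus were called higher in hypothalamus, and all 7 hippocampal markers were called lower in hypothalamus. Of all genes, 21.5% were called higher in thalamus, 23.5% higher in hypothalamus and 23.2% lower in hypothalamus. Also at 3 dpi, 4 of the 6 thalamic markers were called higher in hypothalamus and 4 of the 5 hypothalamic markers higher in thalamus. These counts thus do not tell thalamus from hypothalamus. At 29 dpi, 6 of 6 thalamic and 3 of 4 hypothalamic markers were higher in their own region. Of 7 hippocampal markers, 6 were then lower and 1 higher in thalamus. Some libraries stood apart. In the 29 dpi thalamus, TBI + CD replicate 1 held 37.5 CPM (counts scaled to the same library size throughout) of Tph2, the serotonin-neuron form of tryptophan hydroxylase, against 1.46 in the next library. In the 3 dpi thalamus, Sham + CD replicate 1 held 3.23 CPM of Dbh, which makes noradrenaline, against 0.128 in the next. Choroid plexus markers, led by Ttr, ran from 6.03 to 3218 CPM of Ttr among 3 dpi thalamic libraries.

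Levels below are CPM on library sizes normalised over the 48 libraries of a time point. The tissue is bulk, so fewer cells of a type and less RNA per cell cannot be told apart in any of the values. Per kilobase of exon, Aldh1a1 (aldehyde dehydrogenase of retinal and dopamine aldehyde) had the highest median level of the 10 genes in all 3 regions at 3 dpi, with 28.1 CPM per kb in hippocampus, 50.7 in thalamus and 26.6 in hypothalamus. Ddc (the decarboxylase) followed in each region, at 2.74, 10.9 and 26.1 CPM per kb, so that in hypothalamus it lay next to Aldh1a1, and the ranges of these genes over the 16 hypothalamic libraries overlapped. Th (tyrosine hydroxylase) had 0.359, 9.86 and 17.9 CPM per kb. Slc18a2 (the vesicular monoamine transporter) had 0.551, 2.83 and 13.2 CPM per kb. Slc6a3 (the dopamine transporter) had 0.0815, 4.17 and 1.60 CPM per kb. The 2 receptors differed in hypothalamus and thalamus, where Drd2 (the D2 receptor, also an autoreceptor of dopamine neurons) stood at 5.36 and 5.61 CPM per kb and Drd1 (the D1 receptor) at 1.5 and 1.04. In hippocampus Drd1 had 0.936 CPM per kb and Drd2 0.796, with overlapping ranges. The nicotinic receptor subunit gene Chrna6 had 1.75 CPM per kb in thalamus and 1.29 in hypothalamus. The transcription factor genes En1 and Pitx3, both needed by midbrain dopamine neurons, were the lowest in thalamus, at 0.273 and 0.202 CPM per kb. Part of this order differed at 29 dpi. In hypothalamus Ddc then had 24.7 CPM per kb and Aldh1a1 22.3, again with overlapping ranges. Slc6a3 had 0.900 CPM per kb in thalamus and 1.55 in hypothalamus, and Chrna6 0.772 and 1.37, so for both genes the region with the higher median was the thalamus at 3 dpi and the hypothalamus at 29 dpi, with overlapping ranges at each time.

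**Figure D1:**
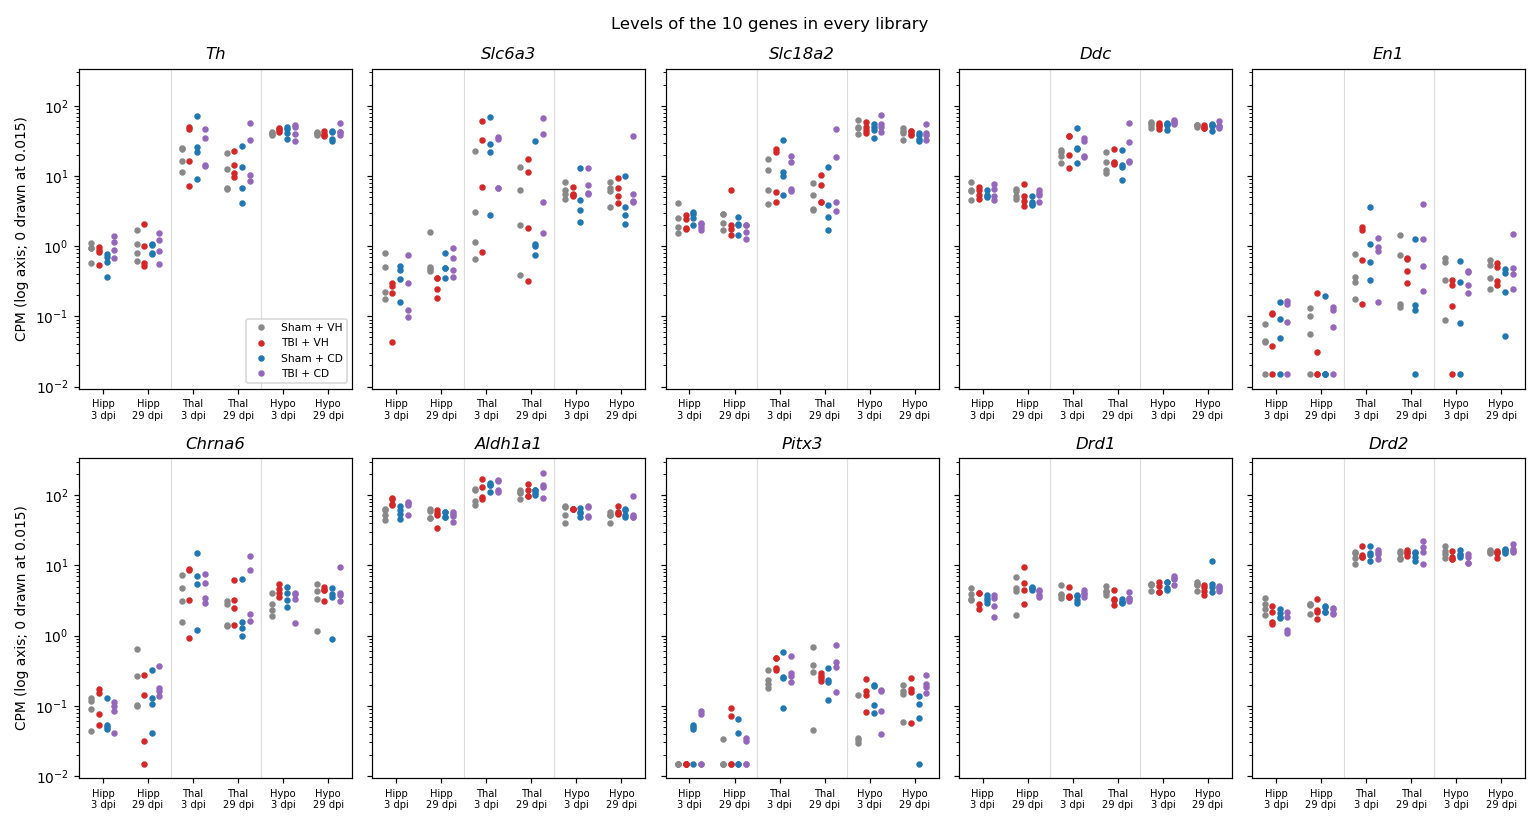
CPM of the 10 genes in every library, 1 panel a gene, on a log axis, with each region at 3 dpi and 29 dpi along the x axis and the treatment groups by colour; each point is 1 library, and 0 is drawn at 0.015. Thalamic Slc6a3 runs from 0.654 to 70.1 CPM at 3 dpi and from 0.323 to 66.5 at 29 dpi, while hypothalamic Th stays between 31.8 and 56.6.

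The 4 genes of dopamine synthesis, storage and uptake lie on 4 chromosomes. In the GENCODE annotation of GRCm38 (mm10, the build the authors aligned to), Th is on the minus strand at chr7:142892752-142931128, Slc6a3 on the plus strand at chr13:73536747-73578672, Slc18a2 on the plus strand at chr19:59260896-59296012 and Ddc on the minus strand at chr11:11814101-11898144. Their promoter windows of 300 bases (250 before and 50 after a start site, from RefSeq on GRCm38.p6) are shown because these genes varied together in the thalamus. Capitals mark the matches found. They are a cAMP response element (CRE, TGACGTCA) in Th and Slc18a2, and in the upstream window of Ddc an NBRE (AAAGGTCA, the site of the Nr4a family) that reads on the strand opposite to the gene, so that its reverse complement is printed, and that overlaps a TATAAA on that same opposite strand. The windows are Th at chr7:142899946-142900245, Slc18a2 at chr19:59260628-59260927, the upstream start of Ddc at chr11:11898095-11898394 and Slc6a3 at chr13:73536497-73536796, each printed 5′ to 3′ on its gene's strand.
Th: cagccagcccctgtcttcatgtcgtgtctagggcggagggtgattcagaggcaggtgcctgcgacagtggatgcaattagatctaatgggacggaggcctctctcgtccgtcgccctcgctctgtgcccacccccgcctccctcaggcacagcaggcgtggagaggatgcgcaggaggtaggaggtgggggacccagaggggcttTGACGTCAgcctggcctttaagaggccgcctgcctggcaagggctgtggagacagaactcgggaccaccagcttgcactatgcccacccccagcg
Slc18a2: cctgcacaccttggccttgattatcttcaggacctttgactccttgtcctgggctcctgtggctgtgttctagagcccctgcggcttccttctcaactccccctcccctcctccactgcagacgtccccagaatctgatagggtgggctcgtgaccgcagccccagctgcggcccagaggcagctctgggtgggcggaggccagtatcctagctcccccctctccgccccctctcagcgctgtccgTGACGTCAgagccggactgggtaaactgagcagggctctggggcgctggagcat
Ddc: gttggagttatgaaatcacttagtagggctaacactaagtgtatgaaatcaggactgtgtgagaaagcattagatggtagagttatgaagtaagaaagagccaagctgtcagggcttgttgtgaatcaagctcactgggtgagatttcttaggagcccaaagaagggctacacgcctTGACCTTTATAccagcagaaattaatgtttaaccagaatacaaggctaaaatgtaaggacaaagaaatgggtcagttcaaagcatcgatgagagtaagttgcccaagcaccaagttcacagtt
Slc6a3: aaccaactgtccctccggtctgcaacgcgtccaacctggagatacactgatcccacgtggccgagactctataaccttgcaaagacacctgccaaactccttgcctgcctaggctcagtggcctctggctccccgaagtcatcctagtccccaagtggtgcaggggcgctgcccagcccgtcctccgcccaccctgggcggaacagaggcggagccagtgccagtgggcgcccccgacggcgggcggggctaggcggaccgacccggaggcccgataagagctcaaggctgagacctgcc

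RefSeq gave 12 such windows for 9 of the 10 genes; Chrna6 was not in the table. The second start of Ddc, with its window at chr11:11890359-11890658, held none of the motifs searched, and neither did the window of Slc6a3. Searched on both strands, CRE was in 2 of the 12 windows and in 1.79% of all 32851 windows. NBRE was in 1 of 12 against 1.51%, TATAAA in 1 of 12 against 13.6%, and the homeodomain site TAATCC in 0 of 12 against 7.06%. These are matches of letters, and no binding was measured. The remaining genes lie at chr1:120602418-120607992 (En1, plus), chr8:27403212-27413944 (Chrna6, minus), chr19:20492715-20643465 (Aldh1a1, plus), chr19:46135685-46148326 (Pitx3, minus), chr13:54051183-54055705 (Drd1, minus) and chr9:49340627-49408177 (Drd2, plus).

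In the thalamus, Slc6a3 varied widely within every group. At 3 dpi, Sham + VH libraries held 22.9, 0.654, 1.16 and 3.11 CPM. TBI + VH libraries held 60.3, 6.97, 0.820 and 33.0 CPM. Sham + CD libraries held 70.1, 28.7, 21.9 and 2.83 CPM, and TBI + CD libraries held 36.6, 6.83, 6.72 and 34.0. Each group thus held at least 1 library above 10 CPM, with 1, 2, 3 and 2 such libraries in this order of groups, and all groups overlapped. Replicate 1 was the highest library in all 4 groups for Slc6a3, and likewise for En1, Th and Ddc, at 3 dpi, against 1 of 4 groups for each of these genes at 29 dpi. At 3 dpi it was the highest in 3 groups for Aldh1a1 and Drd2, in 2 for Slc18a2 and Chrna6, in 1 for Pitx3 and in 0 for Drd1. The labels do not say what a replicate number shares. The highest library was 107 times the lowest.

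The same spread was seen at 29 dpi. Sham + VH libraries held 6.28, 13.6, 1.98 and 0.390 CPM of Slc6a3, and TBI + VH libraries 0.323, 1.83, 11.4 and 17.4. In Sham + CD the values were 1.01, 1.08, 31.2 and 0.761 CPM, so replicate 3 stood far above the rest of its group. In TBI + CD they were 66.5, 1.53, 39.3 and 4.24. In all, 6 of 16 libraries were above 10 CPM and 8 were under 2, against 8 and 3 at 3 dpi, and the ratio of highest to lowest was 206.

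En1, which with Slc6a3 chose the set, was low in the thalamus but followed the same libraries. At 3 dpi it ran from 0.149 CPM (TBI + VH replicate 3) over a median of 0.716 to 3.57 (Sham + CD replicate 1). At 29 dpi it ran from 0 over 0.485 to 4.03 CPM, with the highest value in TBI + CD replicate 1. The highest library for En1 was thus also the highest for Slc6a3 at each time point.

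Th followed the same libraries. At 3 dpi its CPM were 25.1, 11.6, 16.5 and 24.6 in Sham + VH, 49.6, 16.5, 7.12 and 46.7 in TBI + VH, 71.5, 26.1, 22.1 and 9.0 in Sham + CD, and 46.7, 14.5, 13.8 and 34.9 in TBI + CD. At 29 dpi they were 12.4, 21.2, 6.80 and 6.51 in Sham + VH, 11, 9.75, 14.3 and 22.9 in TBI + VH, 6.85, 4.08, 27.1 and 13.6 in Sham + CD, and 56.4, 10.5, 32.4 and 8.58 in TBI + CD. The library highest for Slc6a3 was the highest for Th at both times, and no group lay apart from the rest. Unlike Slc6a3, Th did not fall towards 0: its lowest thalamic values were 7.12 and 4.08 CPM.

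**Figure D2:**
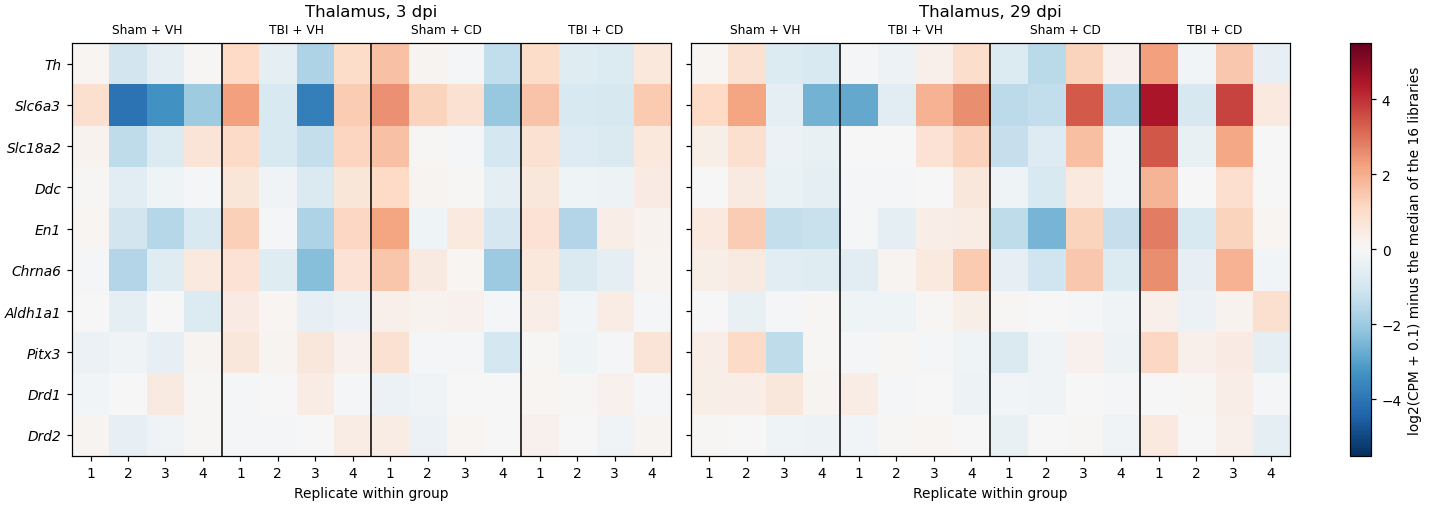
Heat map of the 16 thalamic libraries of each time point, with genes in rows and libraries in columns by group and replicate; colour is log2(CPM + 0.1) less the median over the 16 libraries, on a scale from -5.5 to 5.5. Libraries high in Slc6a3, such as Sham + CD replicate 1 at 3 dpi and TBI + CD replicate 1 at 29 dpi, are also high in Th, Slc18a2, Ddc, En1 and Chrna6, and every group holds high and low libraries.

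Over the 16 thalamic libraries, Pearson's r of log2 CPM with Slc6a3 was 0.87 for Th at 3 dpi (Spearman's rho 0.93) and 0.84 at 29 dpi (rho 0.77). For Ddc it was 0.89 and 0.84, for Slc18a2 0.84 and 0.88, for En1 0.86 and 0.84, and for Chrna6 0.84 and 0.93. The value of En1 comes from the genes that chose the set and supports nothing further. Without the 2 libraries farthest from the median of Slc6a3, r for Th was 0.82 and 0.74 and for Chrna6 0.74 and 0.90. These coefficients are descriptions: the libraries span 4 groups, each value shares its library's depth and composition, and the correlation of Slc6a3 with the library total was -0.20 and -0.07. As deviations from group means, r was 0.91 and 0.82 for Th and 0.89 and 0.93 for Chrna6.

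The other members followed Slc6a3 less. For Drd2, r was 0.59 and 0.68. Aldh1a1 had 0.64 at 3 dpi and 0.30 at 29 dpi, and Pitx3, with at most 17 counts in a thalamic library, had 0.42 and 0.51. Drd1 went the other way at 3 dpi, with r of -0.70, and had -0.03 at 29 dpi. Drd1 itself was nearly level in the thalamus, from 2.92 to 5.30 CPM at 3 dpi and from 2.75 to 5.09 at 29 dpi, so the coefficient at 3 dpi rests on a range of 1.81 times.

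**Figure D3:**
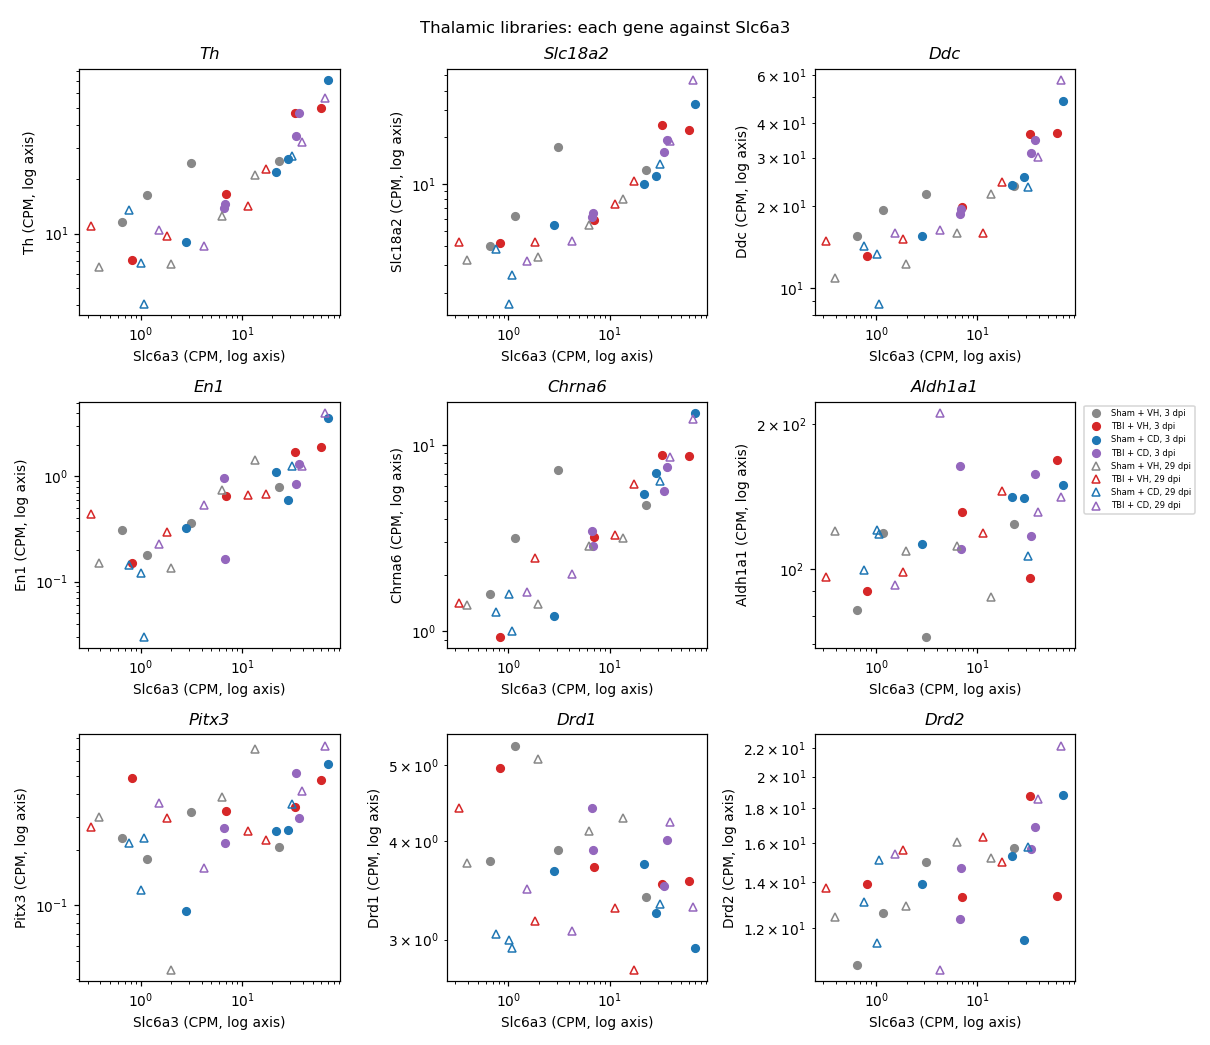
CPM of each of the other 9 genes against CPM of Slc6a3 in the 16 thalamic libraries of each time point, both axes log, with groups by colour, 3 dpi as filled circles and 29 dpi as open triangles; values under 0.03 are drawn at 0.03. Th, Slc18a2, Ddc, En1 and Chrna6 rise along Slc6a3, while Drd1 stays between 2.75 and 5.30 CPM.

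How far each gene fell when Slc6a3 was low differed. A straight line of CPM on Slc6a3 met Slc6a3 of 0 at 10.8 CPM of Th at 3 dpi and 7.80 at 29 dpi, at 16.3 and 12 CPM of Ddc, and at 5.47 and 1.65 CPM of Slc18a2. In the 3 dpi library with the lowest Slc6a3 (Sham + VH replicate 2, 0.654 CPM), Th was 11.6, Ddc 15.5, Slc18a2 4.0 and Chrna6 1.58 CPM. In the library with the highest (Sham + CD replicate 1, 70.1 CPM), Th was 71.5, Ddc 48.3, Slc18a2 32.7 and Chrna6 14.9 CPM. From its own lowest to its own highest 3 dpi thalamic library, Slc6a3 spanned 107 times, Chrna6 15.9 times, Th 10.03 times, Slc18a2 8.16 times and Ddc 3.69 times. The lowest Th, Ddc and Chrna6 (7.12, 13.1 and 0.932 CPM) were in TBI + VH replicate 3, not in the library with the lowest Slc6a3. At 29 dpi the spans were 206 for Slc6a3, 27.6 for Slc18a2, 13.8 for Th, 13.7 for Chrna6 and 6.59 for Ddc.

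Markers of other monoamine neurons differed among the libraries with high Slc6a3. The 3 dpi library with the highest Slc6a3 was the one with Dbh at 3.23 CPM and Slc6a2, the noradrenaline transporter, at 2.11 CPM, against 0.159 CPM of Slc6a2 in the next library. The 29 dpi library with the highest Slc6a3 was the one with Tph2 at 37.5 CPM and Slc6a4, the serotonin transporter, at 18.7 CPM. Other libraries with high Slc6a3 held these markers at low levels. TBI + VH replicate 1 at 3 dpi held 60.3 CPM of Slc6a3. Its Dbh and Slc6a4 were 0.0475 CPM each, its Tph2 0.427 and its Slc6a2 0.0950. TBI + CD replicate 3 at 29 dpi held 39.3 CPM of Slc6a3. Its Dbh was 0.0757 CPM, its Slc6a4 0.151, its Tph2 0.454 and its Slc6a2 0.0378. Medians of the 16 libraries for Dbh, Slc6a4, Tph2 and Slc6a2 were 0.0420, 0.187, 0.611 and 0.0186 CPM at 3 dpi. At 29 dpi they were 0.0638, 0.173, 0.501 and 0.0295 CPM. Over the 4 serotonin markers together, summed CPM ran from 0.837 to 4.88 at 3 dpi and from 0.840 to 59.8 at 29 dpi. Over the 4 noradrenergic markers it ran from 0 to 5.44 and from 0 to 2.60. Their part in the spread of Th, Ddc and Slc18a2 was not tested.

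Among the 14841 genes whose mean reached 1 CPM in thalamus at both times, the 4 whose log2 CPM was most like that of Slc6a3 (ranked by the smaller r of the 2 time points, 16 libraries each) were Th, Ddc, Chrna6 and Slc18a2. The next, which are no members, were Slc10a4, a vesicular transporter-like gene (0.80 and 0.88), Gch1, the first enzyme of the cofactor of tyrosine hydroxylase (0.72 and 0.66), Rassf8 (0.66 and 0.67), Agpat4 (0.65 and 0.68) and Tmem192 (0.65 and 0.64). Drd2 ranked 17, Aldh1a1 515 and Drd1 14464. For Th the most alike genes beyond the members were Slc10a4 (0.79 and 0.83), Gch1 (0.83 and 0.74), Ntn1 (0.74 and 0.78), Pbx3 (0.79 and 0.68) and Kctd5 (0.68 and 0.69). Slc10a4 itself ran from 2.16 to 11.4 CPM at 3 dpi and from 1.17 to 15 at 29 dpi, and was highest in the library highest for Slc6a3 at both times.

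Drd2 shared part of these companions, and Drd1 had others. Drd2 in thalamus was most like Slc10a4 (0.80 and 0.89), also the closest gene beyond the members for Slc6a3 and Th, followed by Dlk1, C130021I20Rik, the member Slc18a2 (0.72 and 0.79), Gfra2 and Ntsr1. In hypothalamus Drd2 was most like Rgs8 (0.82 at 3 dpi and 0.81 at 29 dpi), 9430021M05Rik, Tmem25 and Bin1, and in hippocampus most like Arl10, Tmem108, Fastkd1, Larp1 and Nrarp. Drd1 was most like Cdh18 in hippocampus (0.69 and 0.82), with Fam172a and Zfp945 further down. In thalamus it was most like Nek10, Zdhhc23, Ypel1 and Dgkg, and in hypothalamus most like Psme1, Tceal1, l7Rn6, Tmem35 and Gpr85. In hypothalamus Th was most like Slc6a3 itself, followed by Ctdp1 (0.54 and 0.54), Cdc42ep4, Zfp746, Rps10 and Chrnb3, and Slc6a3 was most like Th, followed by Bola1, Ctdp1, Mir682 and Ppat. Genes among the 5 closest whose row carries only a sequence accession or locus number are not named here.

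The regions differed far more than the treatments. They were compared in the 4 Sham + VH libraries of each region, in a fit over all 48 libraries of a time point, and a gene is called here at an edgeR false discovery rate (FDR) under 0.05 with an absolute log2 fold change over 0.32. In this fit all 10 genes passed the filter on low counts, but En1, Chrna6 and Pitx3 did not pass it in hippocampus alone, so they entered through the regions where they are high and their values over hippocampus are given as descriptions, with no test. Of the 7 members that passed in hippocampus alone, 6 could be tested with the thalamus. Thalamus was higher than hippocampus in 5 of 6 at 3 dpi and 4 of 6 at 29 dpi, against 21.5% and 19.4% of all genes called higher (40.9% and 39.3% in either direction), and lower in 0. Hypothalamus was higher than hippocampus in 6 of 7 at 3 dpi and 5 of 7 at 29 dpi, against 23.5% and 22.8% called higher (46.7% and 45% in either direction), and lower in 0.

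Th, at 1.10, 0.932, 0.571 and 0.932 CPM in the 3 dpi Sham + VH hippocampi and 40.4, 38.5, 41.9 and 41.3 in the hypothalami, had a log2 fold change of 5.5 (SE 0.57, FDR 4.1e-11). Slc18a2 stood at 1.53, 2.53, 4.13 and 1.90 CPM in hippocampus and 40.3, 49.1, 50.4 and 62.3 in hypothalamus, a log2 fold change of 4.33 (SE 0.49, FDR 4.3e-10). Ddc stood at 4.54, 6.08, 8.34 and 6.29 CPM against 48.3, 56.5, 53.9 and 59.2, a log2 fold change of 3.11 (SE 0.27, FDR 1.7e-13). None of these groups overlapped. At 29 dpi the log2 fold changes were 5.45, 4.13 and 3.16.

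Slc6a3 was also higher in hypothalamus than in hippocampus, with 5.59, 6.30, 4.64 and 8.13 CPM against 0.807, 0.178, 0.220 and 0.505 at 3 dpi (log2 fold change 3.82, SE 1.12, edgeR FDR 0.0033). At 29 dpi the log2 fold change was 3.34 (FDR 0.028), and it lost the call without Sham + VH hippocampal replicate 1 (FDR 0.077), 3 (0.084) or 4 (0.051). En1 had only 49 counts over the 4 hypothalamic Sham + VH libraries at 3 dpi and 4 over the hippocampal ones, with a log2 fold change of 3.15. At 29 dpi it was 3.03, and 2.42 without hippocampal Sham + VH replicate 1. Chrna6 stood at 2.81, 4.02, 1.92 and 2.34 CPM in the 3 dpi hypothalami against 0.127, 0.0888, 0.0439 and 0.117 in the hippocampi, a log2 fold change of 4.79 (SE 0.77). At 29 dpi it was 3.40, and 4.69 without hippocampal Sham + VH replicate 3. The 29 dpi value in thalamus over hippocampus was 2.70, and 4.03 without that library.

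Pitx3 had no counts in the 4 Sham + VH hippocampi of 3 dpi. Set against a floor of 3 counts over that group (0.0296 CPM), it was at least 7.91-fold higher in thalamus, where its 4 libraries held 23 counts, and at least 2.03-fold higher in hypothalamus, where they held 7. At 29 dpi the 4 hippocampal libraries held 1 count of Pitx3, the thalamic ones 37 and the hypothalamic ones 17. Per total count this was a ratio of 30.1 for thalamus (exact 95% interval 5.08 to 1220, for counting error only) and of 14.5 for hypothalamus (2.27 to 604). The fitted log2 fold changes of 4.37 and 3.21 became 6.17 and 4.96 without hippocampal Sham + VH replicate 1, and 3.78 and 2.57 without replicate 3.

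The receptor genes differed in their regional pattern. Drd2 stood at 2.38, 2.80, 3.38 and 1.98 CPM in the 3 dpi hippocampi, 15.7, 10.6, 12.6 and 15 in the thalami and 18.9, 16.3, 14.5 and 12.7 in the hypothalami of Sham + VH. Its log2 fold change over hippocampus was 2.36 (SE 0.19) in thalamus and 2.57 (SE 0.19) in hypothalamus, and 2.49 and 2.65 at 29 dpi. Drd1 stood at 3.19, 3.29, 3.86 and 4.82 CPM in the hippocampi, 3.40, 3.77, 5.30 and 3.91 in the thalami and 5.42, 4.31, 5.53 and 5.30 in the hypothalami. Drd1 was not called between thalamus and hippocampus at either time (log2 fold change 0.11 and -0.13). It was called higher in hypothalamus at 3 dpi only, by 0.44 (SE 0.17, FDR 0.028), and that call was lost without hippocampal Sham + VH replicate 1 (FDR 0.11) or 2 (0.097) or hypothalamic replicate 1 (0.056), 3 (0.067) or 4 (0.052).

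**Figure D4:**
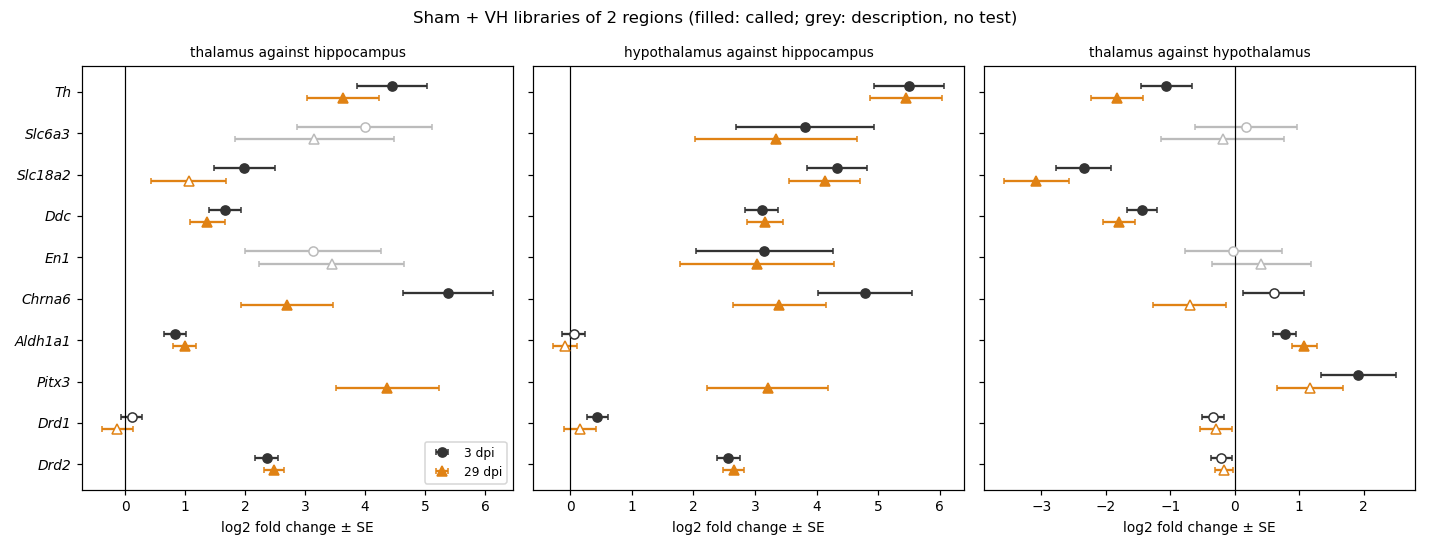
Log2 fold change with its standard error for each gene between 2 regions in Sham + VH libraries (n = 4 a region), with circles for 3 dpi and triangles for 29 dpi; filled points were called, open points were not, and grey points (Slc6a3 and En1 in comparisons with the thalamus) are descriptions, as are those of En1, Chrna6 and Pitx3 against hippocampus and of Pitx3 between thalamus and hypothalamus, whatever their fill. Pitx3 against hippocampus at 3 dpi is left out because all 4 hippocampal libraries had no counts. Th reaches 5.5 in hypothalamus against hippocampus, and Drd1 stays within 0.44 of 0.

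Between thalamus and hypothalamus the synthesis and storage genes were lower in thalamus, and 3 of the 7 members that passed the filter in each of the 2 regions alone were called lower at each time, against 13.9% and 17.4% of all genes. At each time 1 was called higher, against 14.7% and 15.6%. Th was lower by 1.06 on the log2 scale at 3 dpi (SE 0.40, FDR 0.028), a call lost without thalamic Sham + VH replicate 2 (FDR 0.10) or 3 (0.070) or hypothalamic replicate 3 (0.051), and by 1.82 at 29 dpi. Slc18a2 was lower by 2.34 and 3.07, and Ddc by 1.44 and 1.79. Aldh1a1 was the reverse: with 124, 82.4, 119 and 72.5 CPM in the 3 dpi thalami and 68.8, 69.6, 40.9 and 53.2 in the hypothalami, its log2 fold change was 0.78 (SE 0.18), and 1.08 at 29 dpi. Pitx3 did not pass the filter in hypothalamus alone, so its log2 fold changes of 1.92 at 3 dpi (2.68 without hypothalamic Sham + VH replicate 2) and 1.17 at 29 dpi are descriptions. Chrna6, Drd1 and Drd2 were not called.

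By level, Slc6a3 and En1 of the thalamus could not be placed against the hypothalamus: the 4 Sham + VH thalami held 22.9, 0.654, 1.16 and 3.11 CPM of Slc6a3 at 3 dpi, and the hypothalami 4.64 to 8.13, so the thalamic values lay on both sides. Slc18a2, called higher in thalamus than in hippocampus at 3 dpi (log2 fold change 1.99), was not called at 29 dpi (1.06, FDR 0.15), with 5.42, 8.04, 3.38 and 3.24 CPM against 1.71, 2.92, 2.86 and 2.12.

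In hypothalamus the synthesis genes were far steadier than in thalamus. Ddc ran from 45.5 to 63.7 CPM over the 16 libraries of 3 dpi and from 44.3 to 61.5 at 29 dpi. Th ran from 31.8 to 53.9 and from 31.9 to 56.6 CPM, a span of 1.70 and 1.78 times against 10.03 and 13.8 times in thalamus. Th and Slc6a3 were correlated in hypothalamus (r of 0.62 and 0.76 over 16 libraries), and without the 2 libraries farthest from the median of Slc6a3 r was 0.33 and 0.29. At 29 dpi, TBI + CD replicate 4 stood apart with 37.1 CPM of Slc6a3, 98.5 of Aldh1a1, 9.56 of Chrna6, 56.6 of Th and 1.47 of En1, the highest values of each among the 16 libraries. In the same region and time, Sham + CD replicate 3 had 11.7 CPM of Drd1, with Adora2a, the adenosine receptor of striatal neurons, at 8.24 CPM against 1.35 in the next library and Ppp1r1b, the DARPP-32 gene of striatal neurons, at 56.0 CPM against 25.3. The striatal markers Rgs9 and Gpr6 were also highest there but close to the next library, at 107 CPM against 101 and 7.55 against 6.91.

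In the hippocampus, 7 of the 10 genes passed the filter on low counts when its 16 libraries of a time point were fitted alone. En1, Chrna6 and Pitx3 did not. There were 2 calls among 192 tests of members over 24 treatment comparisons in the 3 regions, both in the hippocampus at 3 dpi. The first was Aldh1a1, which stood at 43.9, 64.6, 62.7 and 52.1 CPM in Sham + VH and at 90.1, 73.3, 89.0 and 76.3 in TBI + VH. These groups did not overlap, and Aldh1a1 was 1.5-fold higher after impact (log2 fold change 0.58, SE 0.15, FDR 0.010). It was 1 of 7 members called there, against 10.7% of all 16756 genes tested (8.99% higher and 1.72% lower). In Sham + CD it stood at 46.3, 61.4, 54.2 and 70.1 CPM and in TBI + CD at 80.1, 72.6, 52.3 and 78.0, which against Sham + VH gave a log2 fold change of 0.36 (FDR 0.099) and was not called.

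The other call was Drd2. It stood at 2.38, 2.80, 3.38 and 1.98 CPM in Sham + VH and at 1.08, 2.14, 1.22 and 1.83 in TBI + CD, so these groups overlapped, and it fell by 0.72 on the log2 scale (SE 0.24, FDR 0.048). It was 1 of 7 members called in that comparison, against 12.1% of all genes (10.3% higher and 1.86% lower). TBI + VH held 1.56, 2.2, 1.47 and 2.61 CPM and Sham + CD 2.41, 1.86, 2.08 and 1.79, and neither comparison with Sham + VH was called. The call of Drd2 was lost when any of 12 of the 16 libraries was left out, namely Sham + VH replicates 1, 2 and 3, TBI + VH replicates 1 and 2, all 4 of Sham + CD and TBI + CD replicates 1, 3 and 4, with FDR up to 0.15. The call of Aldh1a1 was kept under each of these 16, with a log2 fold change of 0.49 to 0.66.

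Markers of other cell types moved with these groups in the 3 dpi hippocampus. All 4 astrocyte markers (Aqp4, Aldh1l1, Gja1 and Slc1a3) were called higher after impact with either vehicle or candesartan. Their summed level was 1077 to 1306 CPM in Sham + VH and 1084 to 1228 in Sham + CD, against 1556 to 1910 in TBI + VH and 1636 to 2096 in TBI + CD. All 5 microglia and macrophage markers (Cx3cr1, P2ry12, Tmem119, Cd68 and Lyz2) were called higher in both, with summed levels of 111 to 119 CPM in Sham + VH, of 106 to 125 in Sham + CD, of 217 to 410 in TBI + VH and of 283 to 477 in TBI + CD. The 6 choroid plexus markers ran from 210 to 6938 CPM in Sham + VH, from 63.8 to 121 in Sham + CD, from 22.6 to 173 in TBI + VH and from 21.5 to 2728 in TBI + CD, and 6, 5 and 1 of them were called lower in TBI + VH, Sham + CD and TBI + CD. No marker of these 3 lists was at 0 in any 3 dpi hippocampal library. Their part in the result for Aldh1a1 or Drd2 was not tested, but when the 4 hippocampal libraries with choroid plexus markers above 1000 CPM were left out, which leaves 1 Sham + VH library assumed to vary like the others, neither Aldh1a1 (log2 fold change 0.42, FDR 0.38) nor Drd2 (-0.94, FDR 0.13) was called and Slc18a2 was called lower in TBI + CD (-1.10, FDR 0.039).

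**Figure D5:**
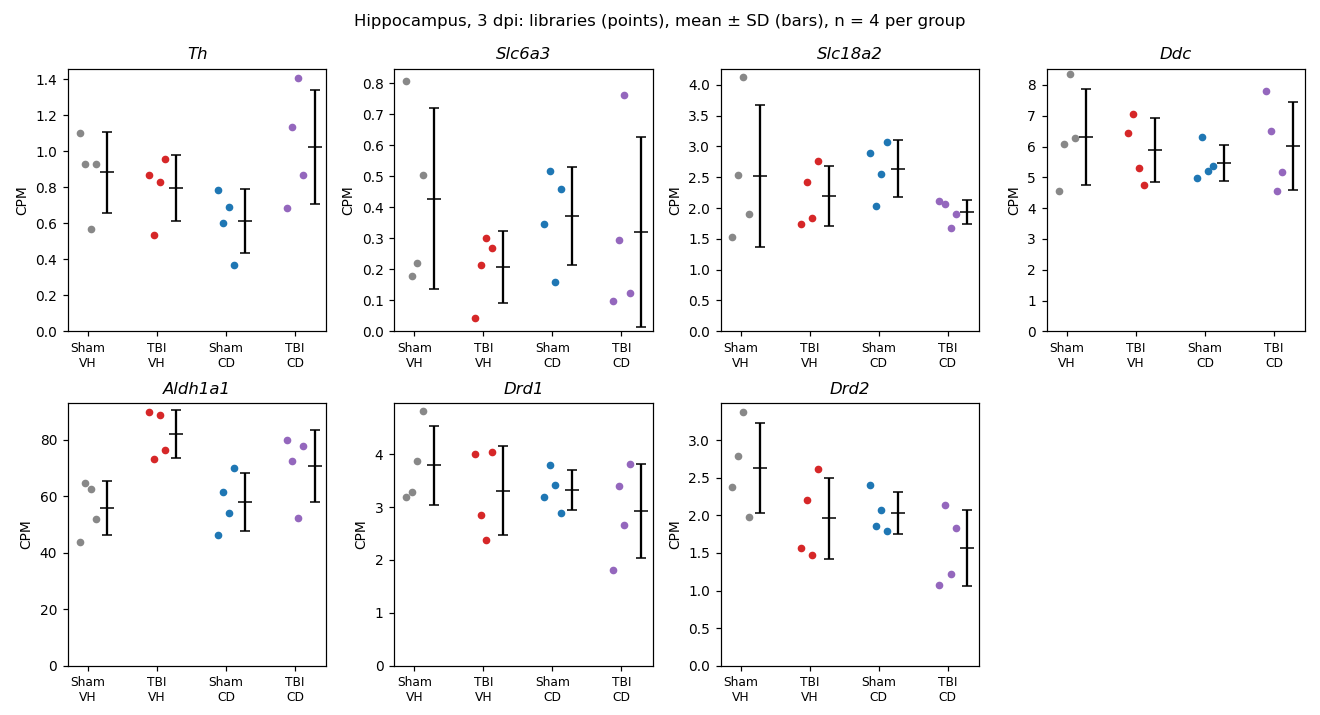
CPM of the 7 members that passed the filter in the 16 hippocampal libraries of 3 dpi by treatment group; points are libraries, and bars are the mean and SD (n = 4 a group). Aldh1a1 runs from 73.3 to 90.1 CPM in TBI + VH, above all 4 Sham + VH libraries at 43.9 to 64.6, while the Drd2 values of TBI + CD (1.08 to 2.14) overlap those of Sham + VH (1.98 to 3.38).

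Th, Slc6a3, Slc18a2, Ddc and Drd1 gave no call in the 3 dpi hippocampus. Over its comparisons with Sham + VH, 1 of 7 members had an unadjusted p under 0.05 in TBI + VH, 0 in Sham + CD (where 1.5% of all genes were called, 0.0836% higher and 1.41% lower) and 2 in TBI + CD, and 0 in TBI + CD against TBI + VH (0% of all genes). DESeq2 called the same 2 members. At 29 dpi the hippocampus gave 0 calls of members in edgeR and in DESeq2, with 1, 1, 0 and 1 at an unadjusted p under 0.05, against 0.529%, 0%, 0.119% and 0% of all genes called in these 4 comparisons.

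In the thalamus, where 8 members were tested, 0 were called in any of the 8 treatment comparisons by edgeR or DESeq2, against 0.298%, 0%, 0.418% and 0% of all genes at 3 dpi and 0% in each at 29 dpi. At an unadjusted p under 0.05 there were 0, 1, 1 and 0 members at 3 dpi and 1, 1, 4 and 0 at 29 dpi. The 4 were in TBI + CD against Sham + VH, where the log2 fold change was 1.87 for Slc18a2 (SE 0.75, FDR 0.96), 0.97 for Ddc (SE 0.38), 1.55 for Chrna6 (SE 0.69) and 0.42 for Aldh1a1. Slc18a2 stood at 46.9, 3.21, 18.9 and 4.29 CPM in TBI + CD and 5.42, 8.04, 3.38 and 3.24 in Sham + VH, so replicates 1 and 3 were high and replicates 2 and 4 lay among the sham values. Drd1 at 29 dpi did not overlap between 2 groups, at 4.12, 4.29, 5.09 and 3.75 CPM in Sham + VH and 3.00, 2.92, 3.33 and 3.05 in Sham + CD, with a log2 fold change of -0.48 (SE 0.15, edgeR FDR 1.0) that was not called.

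In the hypothalamus, 9 members were tested and 0 were called by edgeR or DESeq2 in any of 8 comparisons, against 0% of all genes at 3 dpi and 0.00583%, 0%, 0% and 0% at 29 dpi. At an unadjusted p under 0.05 there were 1, 0, 2 and 2 members at 3 dpi and 0, 0, 0 and 1 at 29 dpi. Th at 3 dpi stood at 40.4, 38.5, 41.9 and 41.3 CPM in Sham + VH, 42.9, 47.6, 45.6 and 47.5 in TBI + VH, 40.6, 50.2, 47.2 and 33.5 in Sham + CD and 31.8, 39.8, 50.5 and 53.9 in TBI + CD. TBI + VH lay above Sham + VH in all 4 libraries, by a log2 fold change of 0.19 (SE 0.14, edgeR FDR 1.0). The groups with candesartan spread on both sides.

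Whether candesartan altered the effect of impact was tested as an interaction. None of 48 such tests of members was called by edgeR or DESeq2. By edgeR 0% of all genes were called in each region at each time, so the absence is not particular to the members. Of the 48 edgeR tests, 3 had an unadjusted p under 0.05. The smallest FDR was 0.36, for Th in the 3 dpi hippocampus (0.90 on the log2 scale, SE 0.41). Whether the effect of impact differed between regions was fitted likewise, and 0 of 52 values of members were called by either tool. In edgeR 1 had an unadjusted p under 0.05 (Drd2 in thalamus against hippocampus at 3 dpi, 0.56, SE 0.27, FDR 0.35). The 52 include En1, Chrna6 and Pitx3 over hippocampus and Pitx3 between thalamus and hypothalamus. These entered through the regions where they are high, so their values are descriptions, with no test. Of all genes, 3.88% were called for thalamus and 5.82% for hypothalamus against hippocampus at 3 dpi, and 0% for thalamus against hypothalamus. At 29 dpi the shares were 0.0223%, 0.0558% and 0.00558%.

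Other genes of the dopamine system were followed in 3 lists. Of 11 further markers of midbrain dopamine neurons, 7 passed the filter in hippocampus alone. Of these, 4 were called higher and 1 lower in thalamus than in hippocampus at both times, and 3 higher and 2 lower in hypothalamus. Of all genes, 21.5% and 19.4% were called higher in thalamus at 3 and 29 dpi, and 19.4% and 19.9% lower, and in hypothalamus 23.5% and 22.8% were higher and 23.2% and 22.2% lower. Ret, the GDNF receptor, was higher by 4.13 in thalamus, Sncg, gamma-synuclein, by 2.35 and Chrnb3, a nicotinic subunit, by 4.65 at 3 dpi. Foxa1, a transcription factor of these neurons, did not pass in hippocampus alone, and it stood at 0 to 0.0490 CPM there and at 0.885 to 5.54 in thalamus at 3 dpi. Nr4a2, the nuclear receptor Nurr1, did not follow: it was not called in thalamus (-0.60) and was lower in hypothalamus (-1.91), and it stood at 33.5 to 61.0 CPM in hippocampus. Kcnj6, a potassium channel subunit, was lower in both (-1.44 and -1.37). Among the 16 thalamic libraries, r of log2 CPM with Slc6a3 at 3 and 29 dpi was 0.82 and 0.54 for Ret, 0.54 and 0.56 for Foxa2, 0.40 and 0.75 for Foxa1, 0.51 and 0.50 for Ntsr1, 0.43 and 0.49 for Gucy2c, 0.24 and 0.72 for Lmx1b, 0.08 and 0.37 for Lmx1a and -0.49 and -0.15 for Kcnj6. The summed level of all 11, in which the abundant genes weigh most, had r of 0.54 and 0.08. Of these genes, Chrnb3, Nr4a2 and Sncg followed the markers of the habenula, a part of the epithalamus beside the thalamus. Over the 16 thalamic libraries, r with the summed level of the 6 habenula markers was 0.92 and 0.97 for Chrnb3, 0.90 and 0.98 for Nr4a2 and 0.82 and 0.90 for Sncg at 3 and 29 dpi, against 0.33 and -0.08, 0.19 and -0.22, and 0.45 and 0.09 with Slc6a3. All 5 habenula markers that passed the filter in hippocampus alone were called higher in thalamus than in hippocampus, and their part in the regional values of Chrnb3, Nr4a2 and Sncg was not tested. Slc6a3 itself had r of 0.10 and -0.24 with the habenula markers.

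Of 8 genes of cofactor synthesis and dopamine breakdown, 7 passed the filter in hippocampus alone, and of these 3 were called higher than in hippocampus in thalamus and 3 in hypothalamus at both times, and 0 lower, beside the shares of all genes above. Maob, a monoamine oxidase, was higher in thalamus by 1.78 and Maoa by 1.06 at 3 dpi, Qdpr, which recycles the cofactor, by 0.46, and Gch1 was higher in hypothalamus by 1.88 and not called in thalamus (0.39). Of the other receptors and their signalling genes, 4 passed that filter. Drd3, the D3 receptor, did not, and it stood at 0 to 0.266 CPM in hippocampus, 0.476 to 1.68 in thalamus and 0.652 to 2.60 in hypothalamus at 3 dpi. Drd5 was lower by 1.22 and 2.33, and Gnal, the G protein subunit Golf, was higher in thalamus by 1.21. Adcy5, the adenylyl cyclase, was higher by 0.49 and 0.36, and Ppp1r1b was lower (-1.27 and -2.06). Over the 24 treatment comparisons the 3 lists gave few calls, all in the 3 dpi hippocampus and all lower: Lmx1a in TBI + VH (-2.73) and in Sham + CD (-4.38), and Ppp1r1b in TBI + VH (-0.88) and TBI + CD (-0.68). Of all genes in the 3 dpi hippocampus, 1.72%, 1.41% and 1.86% were called lower in TBI + VH, Sham + CD and TBI + CD, and 8.99%, 0.0836% and 10.3% higher. Lmx1a, a transcription factor that is also made by choroid plexus, moved there beside the choroid plexus markers, and its relation to them was not tested.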

How the data were processed

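Per the methods of the study, poly(A) RNA was made into stranded libraries and sequenced as paired reads. The authors aligned reads to mm10 with MapSplice and counted them per gene with HTSeq 0.9.1. The deposited values are raw counts, 1 table of 48 libraries per time point. The gene annotation and the strand setting of the counting are not given in the sources used here. The study's own tests, which used DESeq2 1.16.1, were not used.

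Each table has 32594 rows. Trailing spaces were stripped from 214 symbols, which left 63 duplicated symbols, none of them a member. Totals per library ranged from 6663629 to 38589791 counts. Over 144 pairs of libraries of the same group, none was identical and chi-square per degree of freedom was at least 2.64, so all were kept as separate samples.

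Counts were tested with edgeR 4.0.16 in R 4.3.3 by the quasi-likelihood F test, with TMM normalisation and filterByExpr, over the 16 libraries of a region and time point for treatments and interactions with candesartan, and over the 48 libraries of a time point for regions and interactions with region. P-values were adjusted by Benjamini-Hochberg over all genes tested, and all tests are two-sided. A gene was called when its FDR was under 0.05 and its log2 fold change exceeded 0.32 in size. CPM use TMM over 48 libraries, and log2 CPM a prior count of 2. The scripts were tested on simulated data. Alternatives were DESeq2 1.42.0, RLE normalisation, no filter, FDR alone, a fit of the compared groups alone, a block for the replicate number, each library left out and, chosen after seeing the data, 3 sets of libraries left out.

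The members and lists were chosen with earlier results of these data known. Genes named for likeness were the 5 with the largest r, taking the smaller of both time points, to Slc6a3, Th, Drd1 or Drd2 in a region among genes whose mean reached 1 CPM in that region, and rows that carry only a sequence accession or locus number were left out. Promoter windows came from RefSeq on GRCm38.p6.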

Additional observations from a re-analysis of the deposited data

Results flagged for a closer look

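Of 164 groups of 4 libraries in which a member had a mean of at least 1 CPM, 12 held a library whose gap to the nearest of the others, divided by the range of the group, was above Dixon's critical value for 4 values. Slc6a3 and En1 in the thalamus, whose spread chose the set, were left out. Chance alone flags about 1 in 20 groups. The values are given without explanation, and their causes were not tested.

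At 3 dpi, Drd1 in the thalamus of TBI + VH replicate 3 was 4.96 CPM against 3.53 to 3.71 in the rest of its group, and Drd2 in the thalamus of TBI + VH replicate 4 was 18.7 against 13.3 to 13.9. Slc6a3 in the hypothalamus of TBI + VH replicate 4 was 7.06 CPM against 5.15 to 5.46.

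At 29 dpi, the hippocampus gave Drd2 of Sham + VH replicate 3, low at 2.02 CPM against 2.76 to 2.82, and Slc18a2 of TBI + VH replicate 3, high at 6.25 against 1.43 to 2.01. The thalamus gave Ddc of TBI + VH replicate 4 at 24.4 CPM against 14.9 to 15.9. In the thalamus of Sham + CD replicate 3, Chrna6 was 6.38 against 1.0 to 1.58.

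In the hypothalamus of 29 dpi, Ddc of Sham + VH replicate 4 was low at 49.3 CPM against 53.4 to 53.8, and Drd1 of Sham + CD replicate 3 was high at 11.7 against 4.16 to 5.38. In TBI + CD replicate 4, Slc6a3 was 37.1 CPM against 4.22 to 5.51, Chrna6 was 9.56 against 3.10 to 4.01 and Aldh1a1 was 98.5 against 49.4 to 53.0.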

How the results depend on the processing

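No member called in the main fit of a comparison reversed its direction there under any alternative that was run. The directions of members not called were not checked. The number of members called over the 4 treatment comparisons of the 3 dpi hippocampus was 2, and was 1 with no filter on low counts, with only the libraries of the groups compared, with the replicate block and with the 4 libraries rich in choroid plexus markers left out. Leaving out each library in turn gave 1 to 2. The call that was lost with no filter, with only the groups compared and with the block was that of Drd2 (FDR 0.050, 0.089 and 0.054), and the cause was not tested. Same-numbered libraries deviated from their group means together in only part of the pairs (r over 0.1 in 7 of 24 hippocampal, 17 of 24 thalamic and 9 of 24 hypothalamic pairs at 3 dpi, and in 12, 10 and 15 of 24 at 29 dpi), so the numbers were not taken to pair samples. In the 3 dpi thalamus the median r was 0.173, against -0.00982 for pairs with other numbers. Across regions, r was over 0.1 in 18 of 48 same-numbered pairs at 3 dpi and 23 of 48 at 29 dpi. The medians were 0.0571 and 0.0923, against -0.0243 and -0.0371 for other numbers. The region tests treated libraries of different regions as independent, though whether they share mice is not stated. The block left the region counts as they were. With libraries under 15000000 counts left out, Slc6a3 at 29 dpi was no longer called between hypothalamus and hippocampus (3.73, FDR 0.070). Members with few counts, such as En1 and Pitx3, are limited by depth.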
